A study of Mus musculus with 7 samples.

Results

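The anaphylatoxin genes studied here are the receptors of the complement fragments C3a and C5a (C3ar1 and C5ar1), the fragments' precursors (C3, and Hc, the mouse gene of complement C5), factors B, D and I (Cfb, Cfd and Cfi) and both subunits of carboxypeptidase N (Cpn1 and Cpn2). They were chosen by gene symbol, as the 9 genes of this pathway. In the probe annotation 7 of the 9 had a probe, 1 each. Of 23574 probes, 17824 had 1 gene symbol, which gave 16462 symbols in all. C3 and Cfd carried no named probe, so no value is given for either. The samples were whole livers of single mice kept on a chow diet, 3 C3ar1-/- knockouts and 4 wild-type littermates of the knockout line. Each liver was set on a 2-colour array against 1 common reference, pooled from 6 wild-type livers on the same diet, and this reference cancels when the genotypes are compared. Whether the pool holds any of the 4 wild types is unknown here. Sex, age, strain and the deleted part of C3ar1 are unknown from the sources used here. Livers are called by their labels, which number the wild-type livers 1 to 4 and the knockout livers 2 to 4.

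Complement C3 is cleaved by convertases, and that of the alternative pathway contains factor B, which factor D activates. Each cleavage releases the small peptide C3a, and convertases that cleave C5 release C5a. Both peptides signal through receptors coupled to inhibitory G proteins, found mainly on myeloid cells such as macrophages and neutrophils. Carboxypeptidase N, a plasma enzyme made by hepatocytes, removes the terminal arginine of both peptides and so ends most of their activity. Factor I shuts the cascade down by cutting C3b. Hepatocytes are the main source of the plasma proteins in this group, whereas factor D comes largely from fat tissue.

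Values are the deposited log ratios of mouse to pool, read as base 10. Neither the base nor the direction is stated in the sources used here. The titles list the pool ahead of the mouse, as the channels list Cy3 ahead of Cy5, and mouse over pool was assumed from this order. Dyes were swapped, however, so the order does not settle the direction. The other direction would reverse each sign below. A ratio to a liver pool shows no absolute level, so levels of different genes cannot be compared, and whether a probe read above background is unknown. Since the pool is liver as well, the ratios cannot check the tissue by its markers. In whole liver, fewer cells of a type and less RNA per cell cannot be told apart.

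Certain livers stood apart on the arrays. Knockout liver 2 had the widest values. Its SD over all probes was 0.0975, where the other 6 livers had 0.0466 to 0.0676. Knockout liver 4 was highest in acute phase and macrophage genes and lowest in female-biased liver genes, as given further on.

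None of the 7 measured genes differed between the genotypes beyond the spread between mice. Over all probes, limma called 1 of 23574 at an adjusted p under 0.05, or 0.00424%, and 0 of the 7. That probe was A2ml1, a protease inhibitor gene, which was lower in the knockouts. Without adjustment, 1054 probes had a limma p under 0.05, which is 4.47% (1.86% higher and 2.61% lower in the knockouts), and again 0 of the 7 did. All knockouts lay on one side of all wild types for 5.26% of probes, above them for 2.71% and below them for 2.54%, and for 0 of the 7 genes. The knockout mean was the higher one in 5 of the 7 genes and in 57.0% of all probes. The median difference, knockout minus wild type, was 0.0345 over the 7 genes and 0.00555 over all probes. Every one of the 7 intervals (95%) included 0, with half-widths from 0.0463 to 0.119.

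**Figure D1:**
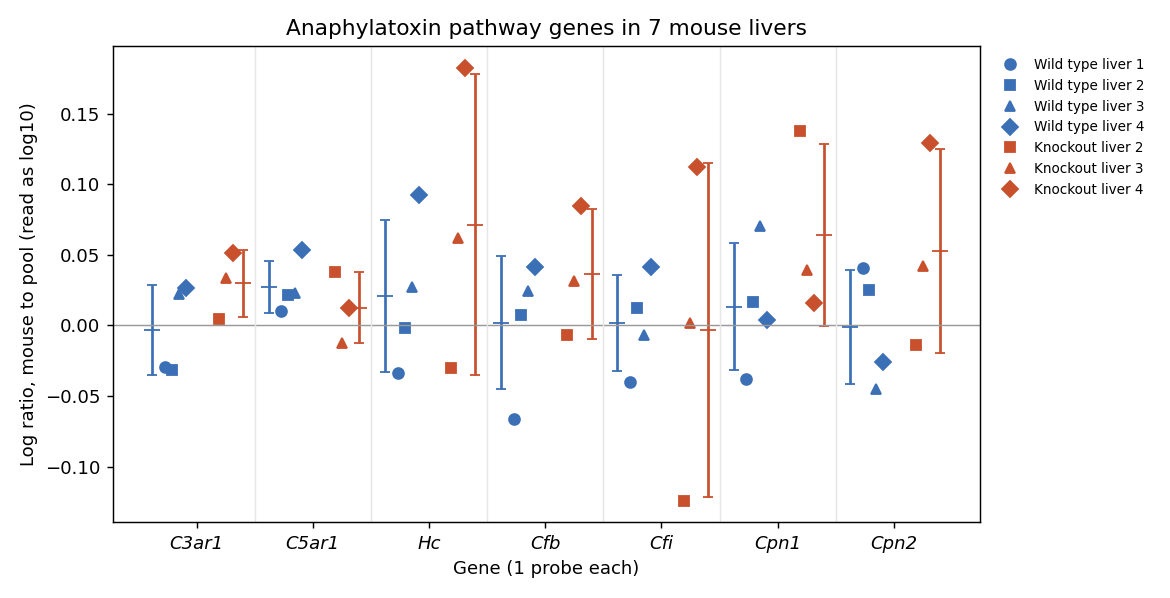
Log ratio of mouse to pool (vertical axis, read as log10) for the 7 measured genes. Each point is 1 mouse liver, wild type in blue and knockout in orange, and the bars are the mean and SD of 4 wild-type and 3 knockout livers. The genotypes overlap in every gene, and knockout liver 4 is the highest point of Hc at 0.183, Cpn2 at 0.129, Cfi at 0.112, Cfb at 0.0845 and C3ar1 at 0.0514.

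The promoter sequences of 4 of these genes are shown because of how the genes varied across mice: C3ar1, the deleted gene, and Hc ranked the mice alike (Spearman correlation 0.857 over 7 arrays), whereas Cpn1 and Cpn2, the subunits of 1 enzyme, did not. Each is the 250 bases before the RefSeq transcription start in build GRCm38.p6, written 5′ to 3′ on the gene's strand. Capitals mark matches to 3 short motifs searched on both strands, for STAT (TTCNNNGAA), C/EBP (TTGCNNAA) and NF-kB.
C3ar1, chr6:122856158-122856407, minus strand: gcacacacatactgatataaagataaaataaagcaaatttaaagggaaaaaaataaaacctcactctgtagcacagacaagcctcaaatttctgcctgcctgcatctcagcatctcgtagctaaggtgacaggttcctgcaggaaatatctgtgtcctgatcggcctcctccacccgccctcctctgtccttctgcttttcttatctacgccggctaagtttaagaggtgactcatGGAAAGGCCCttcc
Hc, chr2:35061413-35061662, minus strand: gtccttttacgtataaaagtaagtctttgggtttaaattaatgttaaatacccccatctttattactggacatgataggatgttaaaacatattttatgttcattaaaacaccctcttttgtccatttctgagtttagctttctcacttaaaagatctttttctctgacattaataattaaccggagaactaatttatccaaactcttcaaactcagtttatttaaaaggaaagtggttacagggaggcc
Cpn1, chr19:43986521-43986770, minus strand: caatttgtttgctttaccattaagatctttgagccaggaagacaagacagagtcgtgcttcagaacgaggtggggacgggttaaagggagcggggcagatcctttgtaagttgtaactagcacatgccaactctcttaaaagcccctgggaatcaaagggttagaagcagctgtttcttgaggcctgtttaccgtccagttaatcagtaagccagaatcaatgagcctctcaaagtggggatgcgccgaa
Cpn2, chr16:30267533-30267782, minus strand: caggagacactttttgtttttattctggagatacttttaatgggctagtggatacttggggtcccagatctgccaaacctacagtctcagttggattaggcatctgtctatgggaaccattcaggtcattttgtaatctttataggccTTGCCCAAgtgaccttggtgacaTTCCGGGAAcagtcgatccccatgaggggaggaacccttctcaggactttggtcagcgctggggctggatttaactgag
The C3ar1 window held 1 NF-kB match, read on the opposite strand, with its first base at -14 from the start. The Cpn2 window held 1 C/EBP match at -102 and 1 STAT match at -79, which do not overlap. Neither Hc nor Cpn1 held any of these letters in the window. Over all 32817 windows of this length, 4.65% held the NF-kB, 9.57% the C/EBP and 7.01% the STAT motif. A match describes letters only, and the table used gave windows for 5 of the 7 measured genes, without Cfb and Cfi.

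C3ar1 encodes the C3a receptor and is the gene deleted in the knockouts. Its 1 probe read -0.0296, -0.0318, 0.0225 and 0.0264 in wild-type livers 1 to 4. In knockout livers 2 to 4 it read 0.0042, 0.0337 and 0.0514. The knockout values were thus not low: livers 3 and 4 lay above all wild types, and liver 2 lay between them. The mean was 0.0298 ± 0.0238 (SD, n = 3) in the knockouts and -0.00313 ± 0.0319 (SD, n = 4) in the wild types. The difference was 0.0329 ± 0.0233 (SE), or 1.08-fold (95% interval 0.952 to 1.22). Its adjusted p in limma was 0.884. Leaving out any 1 mouse gave a difference between 0.0221 and 0.0457. A probe outside the deleted part would not show the deletion. Whether this probe lies outside it, and whether it read above background, is unknown, so it checks neither the labels nor the direction. Across the 7 mice C3ar1 varied with an SD of 0.0317, below the median of all probes at 0.0364.

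C5ar1 encodes the main C5a receptor. Wild-type livers 1 to 4 read 0.0103, 0.0213, 0.0228 and 0.0534, and knockout livers 2 to 4 read 0.0376, -0.0123 and 0.0125. All but knockout liver 3 were above 0, and 2 of the 3 knockouts lay within the range of the wild types. The means were 0.0126 ± 0.0250 (SD, n = 3) in the knockouts and 0.0270 ± 0.0185 (SD, n = 4) in the wild types. The difference of -0.0144 ± 0.0199 (SE) is a ratio of 0.967 (95% interval 0.870 to 1.08). Its adjusted p in limma was 0.895. Leaving out any 1 mouse gave -0.0269 to -0.0019. C5ar1 varied least of the 7 genes, with an SD over mice of 0.0209, which only 16.4% of probes fell below.

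Of the precursors only Hc could be read. Hc encodes complement C5, from which C5a is cut. It read -0.0340, -0.0021, 0.0273 and 0.0926 in wild-type livers 1 to 4 and -0.0303, 0.0617 and 0.183 in knockout livers 2 to 4. Values ran from low to high within both genotypes, with knockout liver 4 highest and wild-type liver 1 lowest. The knockout mean was 0.0713 ± 0.107 (SD, n = 3) and the wild-type mean 0.0210 ± 0.0539 (SD, n = 4). The difference was 0.0504 ± 0.0513 (SE), or 1.12-fold (95% interval 0.853 to 1.48). Its adjusted p in limma was 0.884. Without knockout liver 4 it turned to -0.00525. Hc had the widest spread over mice of the 7 genes, an SD of 0.0773, larger than that of 86.8% of probes.

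Cfb encodes factor B, which supplies the catalytic part of the alternative pathway convertase. Wild-type livers 1 to 4 read -0.0660, 0.0076, 0.0247 and 0.0413, and knockout livers 2 to 4 read -0.0070, 0.0316 and 0.0845. Here again wild-type liver 1 was lowest and knockout liver 4 highest. The means were 0.0364 ± 0.0459 (SD, n = 3) in the knockouts and 0.0019 ± 0.0473 (SD, n = 4) in the wild types. They differed by 0.0345 ± 0.0326 (SE), or 1.08-fold (95% interval 0.909 to 1.29), with an adjusted p of 0.884 in limma. The difference was 0.0104 without knockout liver 4. Leaving out wild-type liver 1 gave 0.0118. C2 lies next to Cfb in the genome and encodes its counterpart in the classical convertase. It is named here after its values were seen. C2 too was lowest in wild-type liver 1, at -0.1504, and highest in knockout liver 4, at 0.106. Between these ends the order differed: knockout liver 3 read -0.0155 in C2, below knockout liver 2 at -0.0022, but lay above that liver in Cfb.

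Cfi encodes factor I, the protease that inactivates C3b. Wild-type livers 1 to 4 read -0.0403, 0.0124, -0.0065 and 0.0411, and knockout livers 2 to 4 read -0.124, 0.0014 and 0.112. The knockouts held both the lowest and the highest of the 7 values. Their mean was -0.00343 ± 0.118 (SD, n = 3), against 0.00168 ± 0.0341 (SD, n = 4) in the wild types. The difference of -0.00511 ± 0.0513 (SE) is a ratio of 0.988 (95% interval 0.751 to 1.30). The limma fit gave an adjusted p of 0.986. It has no settled sign: leaving out knockout liver 2 gave 0.0552, leaving out knockout liver 4 gave -0.0630 and leaving out wild-type liver 4 gave 0.00803. The sign also turned under quantile normalization (0.0135), scale normalization (0.0189) and array weights (0.0100).

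Cpn1 encodes the catalytic subunit of carboxypeptidase N. It read -0.0381, 0.0166, 0.0705 and 0.0040 in wild-type livers 1 to 4 and 0.137, 0.0391 and 0.0155 in knockout livers 2 to 4. All knockouts lay above 0, yet only liver 2 lay above every wild type. The means were 0.0640 ± 0.0647 (SD, n = 3) and 0.0133 ± 0.0448 (SD, n = 4), and the difference was 0.0508 ± 0.0364 (SE), or 1.12-fold (95% interval 0.925 to 1.37). Its adjusted p in limma was 0.884. Without knockout liver 2 it was 0.0141. Against the pool the knockout mean had an unadjusted p of 0.0499 and an adjusted p of 0.284 in limma. That was the smallest adjusted p of any of the 7 genes against the pool, where limma called 0.0339% of probes for the knockouts and 0% for the wild types.

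Cpn2 encodes the regulatory subunit, which stabilises the enzyme in plasma. It read 0.0407, 0.0250, -0.0450 and -0.0256 in wild-type livers 1 to 4 and -0.0137, 0.0422 and 0.129 in knockout livers 2 to 4. Knockout livers 3 and 4 lay above all wild types and liver 2 among them. The knockout mean was 0.0526 ± 0.0720 (SD, n = 3) and the wild-type mean -0.00123 ± 0.0406 (SD, n = 4). The difference, 0.0538 ± 0.0374 (SE), was the largest of the 7 genes in the fit of all mice, at 1.13-fold (95% interval 0.927 to 1.38). In limma the adjusted p was 0.884. Among all probes 16.3% had a larger absolute difference. Without knockout liver 4 the difference was 0.0155. Without knockout liver 2 it was 0.0869, with an unadjusted p of 0.0463 and an adjusted p of 0.9998 in limma. The subunits were thus highest in different knockouts, Cpn1 in liver 2 and Cpn2 in liver 4.

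**Figure D2:**
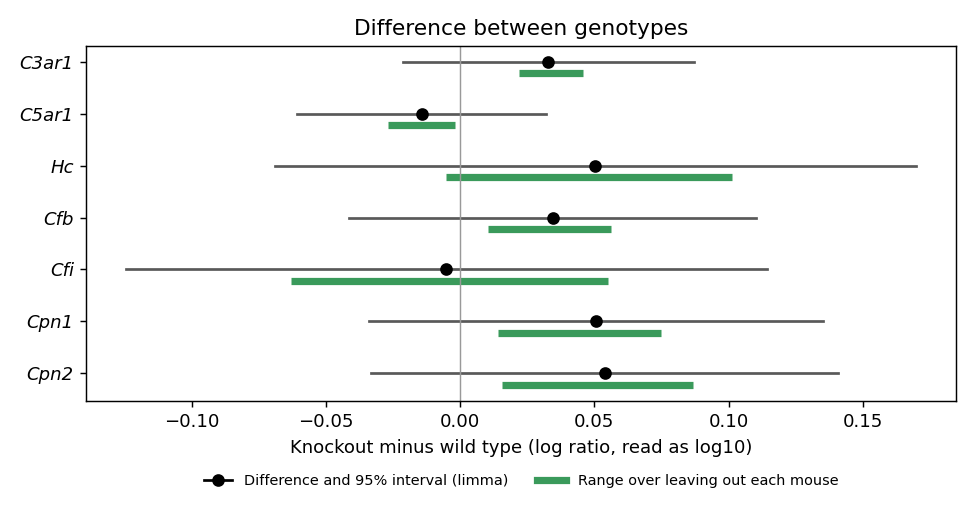
Knockout minus wild type (horizontal axis, log ratio read as log10) for the 7 genes. Points and thin lines are the limma difference and its 95% interval, and the green bars span the differences when each mouse in turn was left out. Every interval includes 0, and the green bars cross 0 for Hc, from -0.00525 to 0.101, and for Cfi, from -0.0630 to 0.0552.

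Several of these genes ranked the 7 livers alike, across both genotypes. Knockout liver 4 was the highest of the 7 livers in 5 genes (C3ar1, Hc, Cfb, Cfi and Cpn2), while it was the highest in 13.5% of all probes. Wild-type liver 1 was the lowest in 3 genes (Hc, Cfb and Cpn1), against 16.7% of all probes. Hc and Cfb put the 7 livers in one and the same order, from wild-type liver 1 over knockout liver 2 to wild-type liver 4 and knockout liver 4. As a description over 7 arrays that share a pool, with no test, their Pearson correlation was 0.897 and their Spearman rank correlation 1. Without the livers farthest from the median of Hc, knockout liver 4 and wild-type liver 4, the Pearson value was 0.812 over 5 arrays. Of the 21 pairs among the 7 genes, 4 had a Pearson correlation above 0.8. These were Hc with Cfb, Hc with Cfi (0.877), C3ar1 with Cfb (0.842) and C3ar1 with Hc (0.8287). Without wild-type livers 1 and 2, the farthest from the median of C3ar1, the last 2 were 0.963 and 0.950. Hc with Cfi fell to 0.639 without knockout liver 4 and wild-type liver 4. Cpn1 with Cpn2 gave -0.409, and C5ar1 lay between -0.554 and 0.223 with the other genes. The share of pairs above 0.8 over all probes was not computed, so whether 4 of 21 is unusual on these arrays is unknown.

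Lists of genes that mark cell types and states of the liver were read on the same arrays. Acute phase plasma proteins, which hepatocytes make in inflammation, had their highest median log ratios in knockout liver 4 (0.189) and wild-type liver 1 (0.0450). In the other livers it ran from -0.0610 to 0.0172, and 14 of the 19 probes were highest in knockout liver 4. Hc and Cfb were thus high in 1 of the livers with the highest acute phase medians and lowest in the other. Serum amyloid A, the classical acute phase gene Saa1, read 0.760 in knockout liver 4, 0.353 in wild-type liver 1 and -0.515 in knockout liver 2. Hepatocyte markers had a median of 0.0823 in knockout liver 4 and from -0.0126 to 0.0242 in the others. The part of these lists in the values of Hc, Cfb, Cfi and Cpn2 was not tested.

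Macrophage and Kupffer cell markers bear on the receptors, which such cells carry. Their median was 0.105 in knockout liver 4, between -0.145 and -0.0450 in 5 livers and -0.260 in wild-type liver 3, over 16 probes of 14 genes. Knockout liver 4 was highest in 14 of the 16 probes and wild-type liver 3 lowest in 12. Adgre1, which encodes the macrophage antigen F4/80, ranged from -0.431 in wild-type liver 3 to 0.118 in knockout liver 4. C3ar1 was also highest in knockout liver 4, but it read 0.0225 in wild-type liver 3, above wild-type livers 1 and 2. For C5ar1, knockout liver 4 read 0.0125 and wild-type liver 3 read 0.0228. Marco, a Kupffer cell scavenger receptor, differed most by p, at 0.365 ± 0.153 (SE), with overlap (adjusted p = 0.884 in limma). Between the genotypes the list's median difference was 0.0436, with 15 of 16 probes higher in the knockouts and 0 called, and it was -0.0166 without knockout liver 4. The part of these cells in the values of the receptors was not tested. Female-biased liver genes had a median of -0.299 in knockout liver 4 and from -0.0193 to 0.0644 in the others, and 8 of the 10 probes were lowest there. Male-biased genes were highest in wild-type liver 3 (median 0.1299) and lowest in knockout liver 2 (-0.152).

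**Figure D3:**
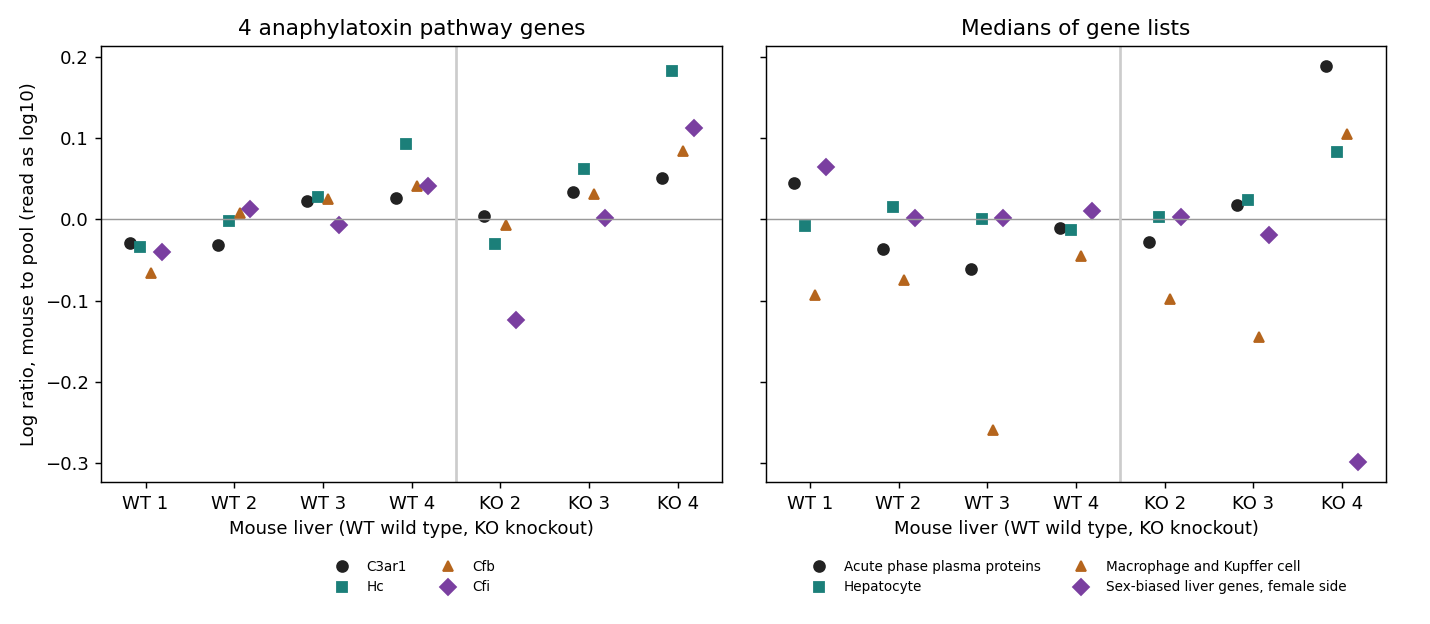
Log ratio of mouse to pool (vertical axes, read as log10) in each of the 7 livers, with wild types (WT) left and knockouts (KO) right of the grey line. The left panel gives C3ar1, Hc, Cfb and Cfi, and the right panel gives the median over the probes of 4 gene lists. In KO 4 the acute phase median is 0.189 and the female-biased median -0.299, and the 4 genes are each at their highest there.

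C3ar1 was also compared with every other probe for likeness across the mice. The 5 named probes whose values over the 7 arrays were most like those of C3ar1 were Ube2j1 (Pearson correlation 0.981), Pla2g4d (0.977), Olfr171 (0.976), Svopl (0.969) and Sec14l3 (0.963). These encode a ubiquitin-conjugating enzyme, a phospholipase, an olfactory receptor, a transporter-like protein and a lipid-binding protein. Their SD over mice ran from 0.0197 to 0.0298, lower than that of C3ar1. In all, 91 other probes of 23574 correlated with C3ar1 above 0.9 over the 7 arrays, which share the pool.

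The other genes of the cascade were read in 7 lists. Of 91 genes listed, 74 were measured, with 80 probes. By limma 0 of the 80 passed, with 6 at an unadjusted p under 0.05, or 7.5%, where the share of all probes was 4.47%. The genotypes did not overlap in 6 probes, also 7.5%, against 5.26% of all probes. The knockout mean was higher in 50 probes and lower in 30. Leaving out knockout liver 4 turned the list medians of the receptors to -0.00563 and of the alternative pathway to -0.0186, and gave 0.00065 for the signalling partners. The lowest adjusted p was 0.884, so every value below is that of a gene that did not pass.

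Other complement receptors had 9 probes of 7 genes, 5 higher and 4 lower in the knockouts, with a median difference of 0.00484. Itgb2, the shared chain of complement receptors 3 and 4, read from -0.0136 to 0.0014 in the wild types and from 0.0026 to 0.0363 in the knockouts. The genotypes did not overlap, and the difference was 0.0323 ± 0.0169 (SE). Of its partner chains, Itgax differed by 0.0328 ± 0.0265 (SE) and the 2 probes of Itgam by -0.0102 and 0.00484, all with overlap. Cd93, a C1q-binding receptor of endothelial and myeloid cells, differed by 0.0731 ± 0.0391 (SE) and overlapped, and by 0.0390 without knockout liver 4. Itgax was 0.0184 without knockout liver 2 and 0.0580 without knockout liver 3. The list's median ran from -0.0079 without wild-type liver 3 to 0.0278 without knockout liver 2.

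Other alternative pathway genes and regulators had 9 probes of 9 genes, 5 higher and 4 lower, with a median of 0.00055. This median has no settled sign: it ran from -0.0267 without wild-type liver 3 to 0.0614 without knockout liver 2, with 0.0498 without wild-type liver 4 and 0.0481 under quantile normalization. Vitronectin (Vtn), which blocks the membrane attack complex in plasma, read -0.0625, -0.0289, 0.0362 and -0.0310 in the wild types and 0.1195, 0.0492 and 0.1085 in the knockouts. All knockouts lay above all wild types, by 0.114 ± 0.0289 (SE) on average, or 1.30-fold with a 95% interval from 1.11 to 1.52. Cd59a, which blocks the same complex on cell membranes, lay the other way. It read 0.0467, -0.0267, -0.0299 and -0.0263 in the wild types and -0.0951, -0.0497 and -0.0782 in the knockouts, a difference of -0.0653 ± 0.0249 (SE). C4bp, a cofactor of factor I, differed by -0.0750 ± 0.0353 (SE), and the genotypes overlapped; without knockout liver 2 it was -0.0415.

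In the classical and lectin pathways 10 of 14 probes read higher in the knockouts, with a median of 0.0404, which was 0.00686 without knockout liver 4. C4b, which encodes complement C4, the donor of a convertase subunit, read from -0.0031 to 0.0361 in the wild types and 0.0784, 0.0654 and 0.122 in knockout livers 2 to 4. The difference was 0.0692 ± 0.0207 (SE), with no overlap. Mbl2, a mannose-binding lectin that starts the lectin pathway, read 0.0015, -0.0679, 0.0011 and -0.0694 in the wild types and -0.101, -0.0931 and -0.136 in the knockouts. It was lower in all knockouts than in all wild types, by -0.0763 ± 0.0261 (SE). C1qa, a chain of C1q that macrophages make, differed by 0.108 ± 0.0518 (SE) and overlapped, and by 0.170 without knockout liver 3 and 0.0421 with array weights. Of the genes in the 7 lists, C1s1 and Tnfrsf1a lie within 20 Mb of C3ar1 on chromosome 6, by the assembly's gene table. The 3 probes of C1s1, the C1s protease, differed by -0.0378, 0.0200 and -0.0209.

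The terminal pathway had 5 of 6 probes higher, with a median of 0.0309, and -0.0333 without knockout liver 4. C6, C8g and C7 were the 3 of smallest p there, at 0.0457, 0.0335 and -0.0586, and all overlapped. C8g was 0.00747 without knockout liver 2, and C6 was 0.0296 without wild-type liver 1. The value of C7 rests on wild-type liver 3, which read 0.217, and without that liver it was 0.00183. Other carboxypeptidases had 3 of 8 probes higher and a median of -0.00569. Its sign turned without wild-type liver 2 (0.00668), without knockout liver 2 (0.00246), with array weights (0.00281), under scale normalization (0.00023) and among the more variable probes (0.0506). Cpxm1 differed by 0.0741 ± 0.0352 (SE), Cpb1 by -0.0330 ± 0.0198 (SE) and Cpz by 0.0228 ± 0.0224 (SE), all with overlap. Leaving out knockout liver 2 gave 0.0402 for Cpxm1 and 0.00395 for Cpz, and leaving out knockout liver 3 gave 0.0358 for Cpz.

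Signalling partners of the receptors had 10 of 18 probes higher and a median of 0.0119, which was -0.00594 with array weights. Gnai1, an alpha subunit of the inhibitory G proteins that these receptors use, read 0.0339, -0.142, 0.0677 and 0.0030 in the wild types and -0.137, -0.205 and -0.281 in the knockouts. Knockout livers 3 and 4 lay below every wild type, while liver 2 lay just above wild-type liver 2. The difference was -0.198 ± 0.0545 (SE), a ratio of 0.633 with a 95% interval from 0.473 to 0.848 and an unadjusted p of 0.00717 (limma, adjusted p = 0.884). Gnai3 differed by -0.0906 ± 0.0703 (SE), and the 2 probes of Gnai2 by 0.0542 and 0.00774. Gng2 and Gnaq, other G protein subunits, differed by 0.0498 ± 0.0277 (SE) and -0.0308 ± 0.0196 (SE), both with overlap. Gng2 was 0.0204 without knockout liver 2, and Gnaq was -0.0197 without knockout liver 4.

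Transcription factors and cytokine receptors that act on complement genes had 12 of 16 probes higher and a median of 0.0286. Il1r1, the receptor through which interleukin-1 induces acute phase genes, showed the largest difference of the 80 probes. It read -0.0210, -0.0245, -0.207 and -0.0797 in wild-type livers 1 to 4 and 0.0808, 0.329 and 0.190 in knockout livers 2 to 4. All knockouts lay above all wild types, by 0.283 ± 0.0658 (SE), or 1.92-fold with a 95% interval from 1.35 to 2.73 and an unadjusted p of 0.00293 (limma, adjusted p = 0.884). Its highest liver was knockout liver 3, and the part of Il1r1 in the values of Hc, Cfb and Cfi was not tested. Ifngr2, a chain of the interferon-gamma receptor, differed by 0.117 ± 0.0534 (SE), and the TNF receptor gene Tnfrsf1a by 0.0580 ± 0.0301 (SE), both with overlap. Ifngr2 was 0.0740 without knockout liver 2. The factors Cebpb and Cebpd differed by 0.0523 ± 0.0896 (SE) and -0.0342 ± 0.163 (SE), with overlap. Both were lowest in knockout liver 4 (-0.137 and -0.420). In knockout livers 2 and 3, Cebpb read 0.204 and 0.176, and Cebpd read 0.161 and 0.264. The lower knockout mean of Cebpd thus rests on knockout liver 4.

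**Figure D4:**
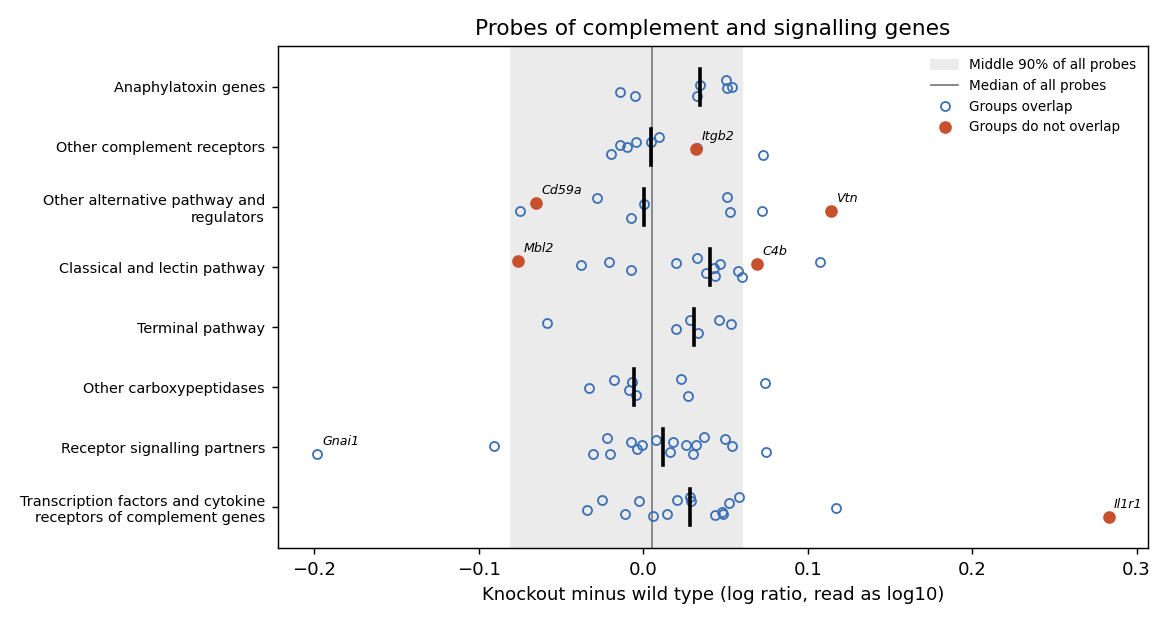
Knockout minus wild type (horizontal axis, log ratio read as log10) for the probes of the 7 anaphylatoxin genes and of 7 lists of related genes. Each circle is 1 probe, filled where the genotypes do not overlap, black bars are list medians, and the grey band holds the middle 90% of all probes, from -0.0804 to 0.0603. All 7 anaphylatoxin genes lie inside the band, while Il1r1 at 0.283 and Gnai1 at -0.198 lie farthest outside it.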

How the data were processed

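Liver RNA of 3 C3ar1-/- and 4 wild-type mice was measured, 1 mouse per 2-colour array against a pool. The authors deposited log10 ratios (the base is assumed) of mouse to pool for 23574 probes. RNA was purified on spin columns with DNase and labelled through aminoallyl coupling, per the labels' protocols, and dyes were swapped, per the series' design text. Whether each column merges both dye orientations, and the scanner software, background correction, normalization and probe build, are not given in the sources used here. Column medians ran from -0.0008 to 0.0139. The SD over probes was 0.0466 to 0.0975 per array, widest in knockout liver 2, and correlations between arrays ran from -0.250 to 0.607. The number of arrays limits the precision. There were 0 unused value columns, and at most 0.119% of values were identical between 2 arrays.

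Probes were named through the platform annotation, updated against the GRCm38.p6 gene table by Entrez number (17724) or accession (21), while 79 kept their symbol. In all, 17824 had 1 symbol, 50 several and 5700 no listed gene. All 23574 probes were fitted with limma 3.58.1 in R 4.3.3 (lmFit, eBayes without trend, two-sided), adjusted by Benjamini-Hochberg with a threshold of 0.05. The step was tested on simulated data. The genes and lists were chosen with earlier results of these data known. All 7 measured anaphylatoxin genes, up to 3 genes of smallest p per pathway list and up to 2 per marker list were named by rule. C2, Itgam, C1s1, Gnai2, Gnai3, Cebpb, Cebpd, Saa1 and Adgre1 were named outside it, after their values were seen. Some lists share genes (Vsig4, the C1q chains, C6, Fgb and Fgg). Same-numbered mice of the 2 genotypes were checked for pairing, and alternatives were 3 normalizations, filters, other variance models, a replicate block and each mouse left out.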

Additional observations from a re-analysis of the deposited data

Results flagged for a closer look

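In the 4 wild types, 63 values were examined for 1 liver far from the other 3, and 5 stood out by Dixon's criterion, where chance gives about 1 in 20. The knockouts, 3 in number, were not examined. None of the 7 anaphylatoxin genes was among the 5. Cd59a read 0.0467 in wild-type liver 1, and C7 read 0.2165 in wild-type liver 3. Ceruloplasmin (Cp), of the acute phase list, read -0.0668 in wild-type liver 3. The median of the female-biased liver genes was 0.0644 in wild-type liver 1, and that of the male-biased genes was 0.1299 in wild-type liver 3.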

How the results depend on the processing

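The 7 genes were recomputed under 17 alternatives, 117 values in all, since C3ar1 and C5ar1 did not pass the filter on variation. None of the 117 was called, the lowest adjusted p being 0.785 in limma, and 111 kept their sign. The robust, trend and ordinary fits, the averaging of probes and the filter leave these differences unchanged, so those signs could not turn. Leaving out 1 mouse gave 0.0221 to 0.0457 for C3ar1, -0.0269 to -0.0019 for C5ar1, -0.00525 to 0.101 for Hc, 0.0104 to 0.0562 for Cfb, -0.0630 to 0.0552 for Cfi, 0.0141 to 0.0750 for Cpn1 and 0.0155 to 0.0869 for Cpn2. Cfi turned to 0.0135 under quantile normalization, 0.0189 under scale normalization and 0.0100 with array weights, and the cause was not tested. Of 112 group means against the pool, 13 turned sign and 0 were called. With arrays centred on their median, the wild-type means of Cfb and Cfi were -0.0020 and -0.00223. Leaving out 1 mouse at a time moved the wild-type mean of C3ar1 between -0.0130 and 0.00643 (0.0057 without liver 1), Hc between -0.00293 and 0.0393, Cfb between -0.0112 and 0.0245 (-0.0057 without liver 3), Cfi between -0.0115 and 0.0157 (-0.0019 without liver 2), Cpn1 between -0.00583 and 0.0304 and Cpn2 between -0.0152 and 0.0134 (0.0069 without liver 4). The knockout mean of Cfi moved between -0.0614 and 0.0569. Of 289 list medians, 257 moved by less than the spread between mice, though the robust, trend and ordinary fits could not move any. C7 ran from -0.0844 to 0.00183 when 1 mouse was left out, and no other pathway gene named by rule turned sign. The pathway genes named outside the rule were not recomputed one by one.

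The count of called probes, 1 in the fit of all mice, was 0 in limma under quantile normalization, scale normalization, a trend and the replicate block, 0 in the ordinary test and 4 among the 11787 more variable probes. It ran from 0 to 3 when 1 mouse was left out. At an unadjusted p under 0.05 these fits listed 834, 863, 986, 543, 949 and 565 probes. Same-numbered mice did not deviate together (correlations -0.137, -0.205 and -0.154, and 0 of 3 knockouts correlated best with their own number), so the numbers were not taken as pairs. With the replicate block, over 6 arrays, C3ar1 differed by 0.0241 and Hc by 0.0321. Signal over background was not analysed here.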

Other observations

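The marker lists not described with the anaphylatoxin genes also held 0 called probes each in limma. Endothelial markers read higher in the knockouts in 10 of 11 probes, with a median difference of 0.0436. Their 3 probes at an unadjusted p under 0.05 included Vwf, the von Willebrand factor gene, at 0.0745 ± 0.0218 (SE) and the scavenger receptor gene Stab1 at 0.102 ± 0.0306 (SE), both with no overlap between genotypes. Over all probes 4.47% had such a p and 5.26% did not overlap. The endothelial median was 0.0384 without knockout liver 4 and 0.0129 with array weights. Stellate cell and fibroblast markers read higher in 6 of 8 probes, by a median of 0.0451, or 0.0205 without knockout liver 4, with Col1a2 at 0.0813 and Col1a1 at 0.147. Neutrophil and monocyte markers had a median of 0.00822, with sign turns to -0.00215 without knockout liver 4 and to -0.00381 under array weights, and 0.0262 without knockout liver 3, with Elane at 0.0442 and Camp at -0.0319. Hepatocyte markers had a median difference of 0.0307, higher in 10 of 12 probes, and acute phase proteins 0.0817, higher in 18 of 19. Without knockout liver 4 these were 0.00488 and 0.0182. All 10 female-biased probes read lower, by a median of -0.0895, and 7 of 9 male-biased probes higher, by 0.116. Without knockout liver 4 these were -0.0272 and 0.0431, and the female median was -0.219 without knockout liver 3 and the male median 0.0139 without wild-type liver 1. The 2 probes of sex chromosome genes were Kdm5d at -0.0263 and Uty at 4.17e-05.

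Adipocyte markers, listed for the sake of Cfd, had a median of -0.00293 over 8 probes, which turned to 0.00602 without wild-type liver 1. Cidea, which encodes a lipid droplet protein, read 0.2565, -0.945, 0.354 and -0.0325 in the wild types and -0.640, -1.19 and -1.37 in the knockouts. It overlapped between the genotypes through wild-type liver 2, and its difference was -0.974 ± 0.321 (SE, unadjusted p = 0.0170 in limma). Cidec, a related gene, differed by -0.416 ± 0.290 (SE).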
